A study of Mus musculus with 64 samples.

Results

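Heme is the iron-holding ring that lets cytochromes and other proteins carry electrons and oxygen, and this account follows the genes that make and break it in the proximal colon. The set held 9 genes, listed for Alas1, other heme synthesis enzymes, heme breakdown and the partner of P450 enzymes, out of 19503 genes with a named probeset in the whole table. The genes were Alas1, Alad, Uros, Urod, Cpox, Ppox, Fech, Hmox1 and Por. Of these, 8 had a named probeset, each of them 1, and Por was not analysed here. The set was chosen by the fall of Alas1 on HFD in these same arrays, so the diet values of Alas1 are a description and carry no test. The question was whether the other genes, and genes around them, moved with it, over the arrays and strain by strain.

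The arrays covered 32 inbred strains, 30 BXD strains and their parents C57BL/6J and DBA/2J. BXD strains are recombinant inbred lines, so each carries a fixed mosaic of the 2 parental genomes. Every strain had 1 array on chow diet (CD) and 1 on high-fat diet (HFD), 64 in all, each made from RNA of about 5 male mice pooled in equal amounts. The mice were on their diet from 8 to 29 weeks of age and were refed for 4 h after a daytime fast. CD gave 18% of energy as fat and HFD 60.3%. All levels are on the log2 intensity scale, with the authors' own normalisation. Differences are HFD minus CD with a standard error from limma, and adjusted p-values are Benjamini-Hochberg values over all 19503 genes. In whole tissue, fewer cells of a type and less RNA per cell cannot be told apart, and since each strain has 1 pool per diet, p-values measure the spread between strains and pools.

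Heme synthesis starts and ends in the mitochondrion. Alas1 joins glycine and succinyl-CoA, the step that sets the pace of the pathway outside red blood cell precursors, and it is held down by heme itself. Alad, Uros and Urod then build and trim the ring in the cytosol, Cpox and Ppox oxidise it back at the mitochondrion, and Fech inserts the iron. Hmox1 opens the ring again to give biliverdin, carbon monoxide and iron. Much of the heme made in liver and gut serves microsomal P450 enzymes, which oxidise drugs, sterols and fatty acids.

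The promoter of Alas1 is shown because Alas1 is the gene the set was built on. The gene lies on chr9:106233455-106247954 of GRCm38.p6, on the minus strand, and RefSeq places 2 start sites there. Each window runs from 250 bases before a start to 50 after it, 5′ to 3′, and capitals mark the core of the NRF1 motif, CGCATGCG, which reads the same on both strands. NRF1 is a factor known for driving genes of the mitochondrion.
Alas1 first window (chr9:106247905-106248204, minus strand): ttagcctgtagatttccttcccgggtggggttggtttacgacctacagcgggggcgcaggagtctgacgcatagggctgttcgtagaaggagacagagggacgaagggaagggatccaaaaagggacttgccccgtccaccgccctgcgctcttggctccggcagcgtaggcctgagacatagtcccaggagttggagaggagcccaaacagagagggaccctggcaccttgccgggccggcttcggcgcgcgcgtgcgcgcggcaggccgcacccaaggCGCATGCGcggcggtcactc
Alas1 second window (chr9:106247681-106247980, minus strand): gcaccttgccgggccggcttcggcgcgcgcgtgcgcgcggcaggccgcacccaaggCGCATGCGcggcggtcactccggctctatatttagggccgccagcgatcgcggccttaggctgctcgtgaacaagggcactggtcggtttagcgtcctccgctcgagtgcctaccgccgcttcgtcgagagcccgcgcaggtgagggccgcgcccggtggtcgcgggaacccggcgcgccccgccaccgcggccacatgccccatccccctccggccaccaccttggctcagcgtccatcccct
Both windows overlap by 76 bases and hold the same copy of the core, at chr9:106247917-106247924. Of all 32851 promoter windows of this length, 1.87% held the core. Windows were found for 7 of the 9 genes, and Alas1 was the one whose windows held it. The E-box CACGTG, in 7.15% of all windows, was found in those of Alad, Urod and Uros and not in those of Alas1, and the CRE palindrome TGACGTCA, in 1.79%, was found in none of the 7. These are matches of letters and no sign that a factor binds.

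The labels of 5 strains need to be read with care before any value per strain. At 9 genes other than Alad that are expressed at a high or a low level depending on the strain, with a gap of at least 1 on the log2 scale between the levels, the CD and the HFD array lay at the same level at all 9 genes in 27 strains. The agreement was 7 of 9 in BXD87 and BXD90, 4 of 9 in BXD89, 3 of 9 in C57BL/6J and 0 of 9 in DBA/2J. The arrays labelled as 1 of these 5 strains may therefore not be a pair from 1 strain, and values without them are given for the genes of the set, for the correlations that turn on them and for the calls in the lists that they change. These genes tell strains apart, so they cannot show whether the diet labels of these arrays are right. Which of the arrays carry a wrong strain or diet label was not tested, and all of them are in the main fit. On another count, BXD49 on HFD and BXD81 on CD had the lowest median correlation with the other arrays of their diet (0.962 and 0.965), and 4 arrays (BXD48a on CD, BXD39, BXD49 and BXD69 on HFD) held Defa24, a small intestinal Paneth cell gene, at 15.77 or more against at most 9.76 elsewhere.

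Alas1 was 2.46-fold lower on HFD over all arrays. On CD it ranged from 13.53 through a median of 15.34 to 16.11, and on HFD from 12.23 through 13.86 to 15.70. The mean was 15.21 ± 0.59 (SD, n = 32) on CD and 13.91 ± 0.76 on HFD, a difference of -1.30 (SE 0.164). The groups overlapped, with 30 of 32 HFD arrays under the CD median and 7 under every CD array. It was lower on HFD in 29 of 32 strains, and by at least 1 on the log2 scale in 24.

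The overlap came mostly from the 5 strains in doubt. Alas1 was lower on HFD in all 27 other strains, with changes from -0.48 in BXD6 to -2.51 in BXD45, where it went from 15.38 to 12.87. In the 5 strains the change lay between -0.08 and 0.83. The lowest CD arrays of all were C57BL/6J at 13.53 and DBA/2J at 13.95, at the level of the HFD arrays. The highest HFD arrays of all were BXD87 at 15.70, BXD89 at 15.66 and BXD90 at 15.16, at the level of the CD arrays. Without these strains CD ran from 14.34 to 16.11 and HFD from 12.23 to 14.74, with 24 of 27 HFD arrays under every CD array, and the difference was -1.59. The 9 genes used to judge the pairs do not include Alas1.

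**Figure D1:**
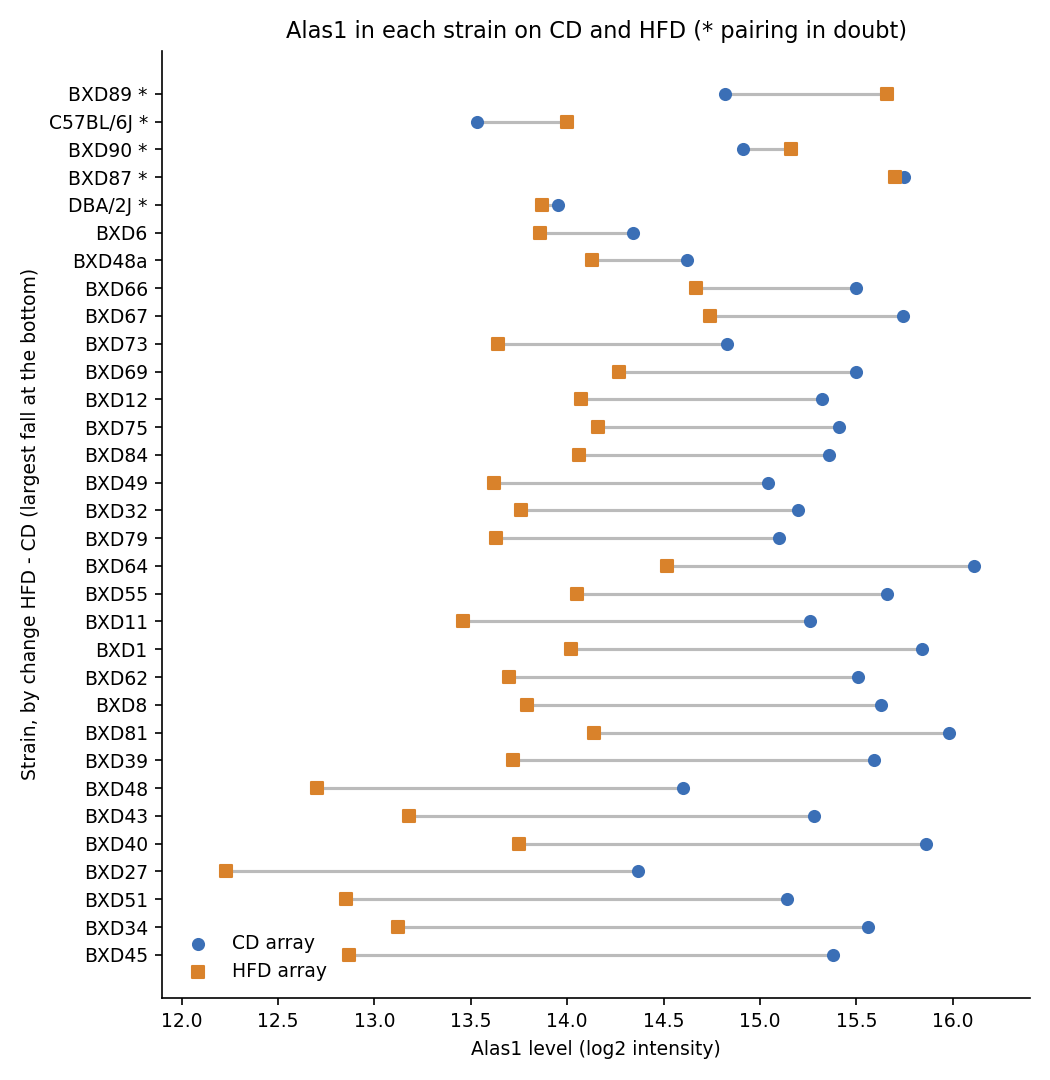
Alas1 level (log2 intensity, x axis) on the CD (circles) and the HFD array (squares) of each of 32 strains (y axis), ordered by the change, with a star for the 5 strains whose pairing is in doubt. The 27 strains without a star all have the HFD array to the left, and the 5 with one have changes from -0.08 to 0.83.

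None of the other 7 measured genes passed the test, against a background of 1.44% of all genes called lower and 0.743% called higher in the same limma fit. At an unadjusted p under 0.05 there were 2, Fech and Hmox1. Along the pathway, Uros differed by -0.08 (SE 0.089, adjusted p = 0.777 by limma), Urod by 0.10 (SE 0.079, adjusted p = 0.661), Cpox by 0.06 (SE 0.092, adjusted p = 0.841) and Ppox by 0.02 (SE 0.080, adjusted p = 0.952). The 95% interval ran from -0.26 to 0.10 for Uros, from -0.06 to 0.25 for Urod, from -0.12 to 0.25 for Cpox and from -0.14 to 0.18 for Ppox. None of these intervals reached a change of the size seen in Alas1. These 4 genes were lower on HFD in 14 to 18 of 32 strains, about as often as they were higher. Over the 27 strains they differed by -0.10 for Uros, 0.12 for Urod, 0.02 for Cpox and 0.01 for Ppox, with adjusted p between 0.521 and 0.977 by limma.

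Fech, the last enzyme, ranged on CD from 8.30 through a median of 8.97 to 9.92 and on HFD from 8.30 through 8.81 to 9.79. The difference was -0.18 (SE 0.082, adjusted p = 0.312 by limma), with lower values on HFD in 19 strains, and the ranges overlapped almost fully. Without the 5 strains in doubt it was -0.19 (adjusted p = 0.267).

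**Figure D2:**
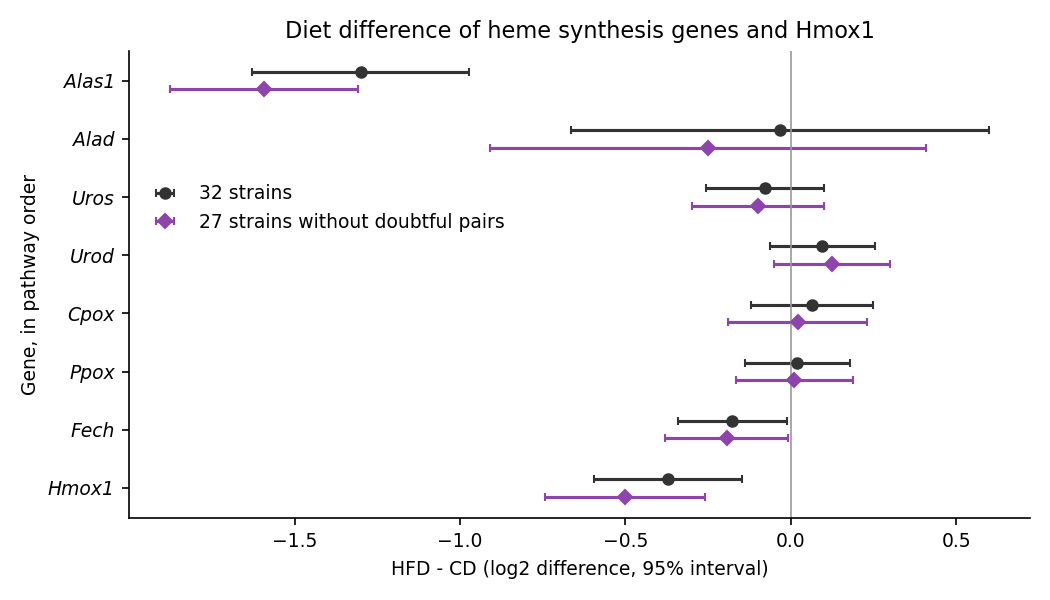
Difference HFD minus CD (log2, x axis) of the 7 heme synthesis genes in pathway order and of Hmox1 (y axis), with 95% intervals, over 32 strains (circles) and over 27 strains without those of doubtful pairing (diamonds). Alas1 lies near -1.30 and -1.59, Hmox1 near -0.37 and -0.50, and the intervals of Alad, Uros, Urod, Cpox and Ppox cross 0 in both.

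Hmox1 came closest to the threshold. On CD it ranged from 6.39 through a median of 7.40 to 9.78, and on HFD from 6.36 through 7.06 to 7.81. The mean was 7.42 ± 0.55 on CD and 7.05 ± 0.34 on HFD, a difference of -0.37 (SE 0.112, adjusted p = 0.0573 by limma), lower in 25 of 32 strains. Without the 5 strains in doubt it was -0.50 (adjusted p = 0.00636 by limma), lower in 25 of 27 strains, while in all 5 of the strains set aside the HFD array was the higher one. In that fit 2.70% of all genes were called lower and 1.69% higher. With strain as a replicate block it passed as well (adjusted p = 0.0349), with 2.13% of genes called lower and 1.39% higher. The CD array of BXD81, at 9.78 against 7.89 for the next highest, carried part of the difference. Without BXD81 on CD and BXD49 on HFD the difference was -0.29 (adjusted p = 0.0649). The adjusted p lay between 0.00636 and 0.0649 over 11 settings and was under 0.05 in 5 of them.

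Alad had the widest spread of the set, and its level went with the strain. On CD, 18 arrays lay between 8.16 and 10.42 and 14 between 11.01 and 12.26, with nothing between. On HFD, 16 lay between 8.48 and 9.70 and 16 between 10.73 and 12.68. The high level was 5.29-fold over the low one on CD and 5.79-fold on HFD. Alad is known to be duplicated in DBA/2J and single in C57BL/6J. Over all 32 arrays per diet the mean was 10.51 ± 1.31 on CD and 10.48 ± 1.35 on HFD, so the difference of -0.03 (SE 0.316, adjusted p = 0.980 by limma) has a 95% interval of -0.66 to 0.60. Changes of the size seen in the other genes could not be detected for Alad in this way. With strain as a replicate block the SE was 0.179 and the adjusted p 0.955 over all strains. Over the 27 strains, in a fit without the block, the difference was -0.25 (SE 0.329, adjusted p = 0.780 by limma). Alad was lower on HFD in 20 of these 27 strains. That fit left the strain levels of Alad in its error, and a fit with the block over the 27 strains was not run.

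Strains kept their level of Alad across diets with few exceptions, 28 at the same level and 4 at the other. The 4 were C57BL/6J (12.02 on CD, 9.27 on HFD), DBA/2J (9.63 and 11.22), BXD87 (8.59 and 12.08) and BXD89 (9.72 and 12.49), all among the 5 in doubt. The array labelled C57BL/6J on CD thus stood with the high strains and the one labelled DBA/2J on CD with the low ones, and on HFD it was the reverse. BXD90 was high on both, at 12.04 and 12.68.

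**Figure D3:**
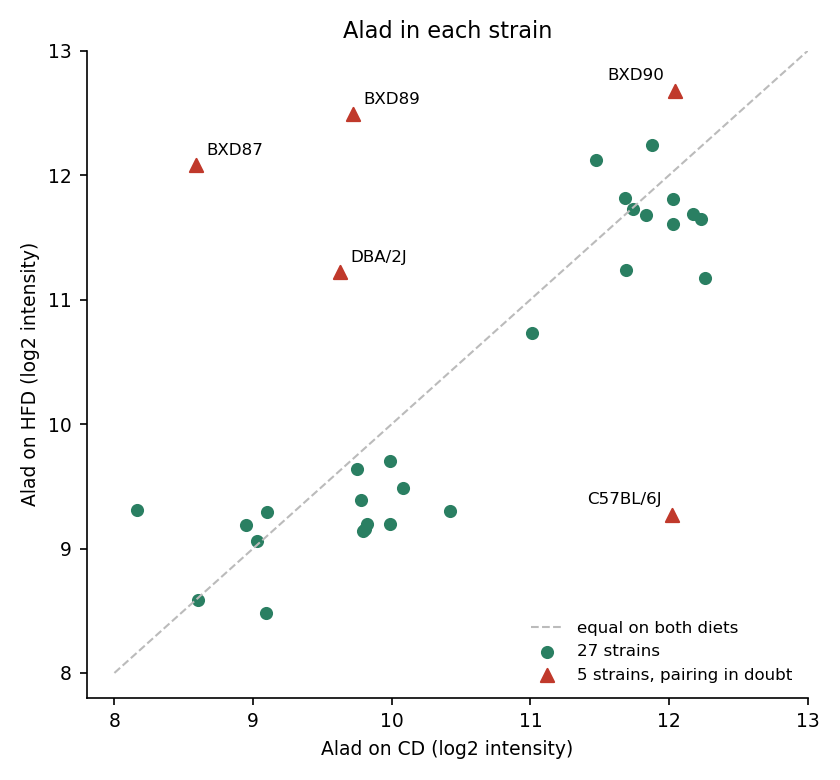
Alad level on HFD (y axis, log2 intensity) against that on CD (x axis, log2 intensity) for each of 32 strains, with the line of equal values. The 27 strains (circles) fall into a low and a high cloud near the line, and 4 of the 5 strains of doubtful pairing (triangles) lie off it at the other level.

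The change of Alad followed that of Alas1 from strain to strain. Over the 28 strains that kept their level of Alad, the change HFD minus CD of both genes correlated with Pearson r = 0.74 (permutation p = 1e-05, the smallest the permutations can give, adjusted p = 0.0001 over 10 genes) and Spearman rho = 0.67 (permutation p = 0.00014, adjusted p = 0.0014). Strains with a deep fall of Alas1 mostly had a fall of Alad, and those with a shallow one mostly had little change or a rise. In BXD45 Alas1 changed by -2.51 and Alad by -1.09, and in BXD34 they changed by -2.43 and -1.12. In BXD6 Alas1 changed by -0.48 and Alad by 1.16. Some strains departed from this, such as BXD62 (-1.82 and 0.65) and BXD84 (-1.30 and -0.48). Without the 2 strains farthest from the median change of Alas1, r was 0.63. Without the strains in doubt it was 0.71 over 27 strains (permutation p = 4e-05, adjusted p = 0.0004), and 0.60 without the 2 farthest. Across genes, that r was higher than for 99.9% of all genes in these 27 strains, where the median gene had 0.01.

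Among strains with low Alad on both diets, none of which is in doubt, the relation passed, and among those with high Alad it did not hold up. Among the 15 low strains r was 0.83 (permutation p = 0.00011; Spearman rho = 0.71, permutation p = 0.00359), and 0.67 without the 2 farthest. Among the 13 high strains r was 0.66 (permutation p = 0.0143; rho = 0.59, permutation p = 0.0373). It fell to 0.28 without the 2 farthest, and it was 0.52 over the 12 high strains that remain without BXD90 (permutation p = 0.084; rho = 0.54, permutation p = 0.0734), so in the high strains the relation rests on few strains. These values within the levels were computed after the relation over all strains had been seen. With arrays centred on their median r over the 28 strains was 0.75, and after quantile normalisation it was 0.64. The change of both genes comes from the same 2 arrays, and the part that an array as a whole has in it was not tested.

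The other enzymes did not pass this test. The r with the change of Alas1 was 0.18 for Uros (permutation p = 0.312), -0.18 for Urod (permutation p = 0.323), 0.21 for Cpox (permutation p = 0.249), 0.29 for Ppox (permutation p = 0.113) and 0.31 for Fech (permutation p = 0.0858), over 32 strains. Spearman rho ran from -0.12 for Urod to 0.34 for Ppox. Over the 30 BXD strains Fech had r = 0.40 (permutation p = 0.0286, adjusted p = 0.0477). Over the 27 strains the r was 0.39 for Fech (permutation p = 0.0425, adjusted p = 0.142) and 0.46 for Ppox (permutation p = 0.0155, adjusted p = 0.0775), and between 0.07 and 0.23 for Uros, Urod and Cpox.

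For Hmox1 and the known HFD genes the relation came and went with the 5 strains in doubt. Hmox1 had r = 0.45 over 32 strains (permutation p = 0.00911, adjusted p = 0.0182; rho = 0.37, permutation p = 0.037, adjusted p = 0.0819), and 0.11 over 27 (permutation p = 0.574). Cyp2c55, an abundant P450 of the colon, had r = 0.54 (permutation p = 0.00173, adjusted p = 0.00432; rho = 0.36, permutation p = 0.0409) and 0.18 over 27 (permutation p = 0.364). Ces2a, a carboxylesterase, had r = 0.75 (permutation p = 2e-05, adjusted p = 0.0001; rho = 0.54, permutation p = 0.00155) and 0.30 over 27 (permutation p = 0.127). Nqo1, a quinone reductase under control of Nfe2l2, had r = 0.63 (permutation p = 0.00018, adjusted p = 0.0006; rho = 0.57, permutation p = 0.00069) and 0.36 over 27 (permutation p = 0.0651). Alad was the 1 gene of the 10 whose adjusted p was under 0.05 without the strains in doubt. Its main test, over 28 strains, had already left out 4 of these 5 for their own Alad levels. Only BXD90 was therefore removed from it here, so its values with and without the strains in doubt do not compare with those of the other genes. Over all 32 strains the r of Alad was 0.51, given as a description.

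**Figure D4:**
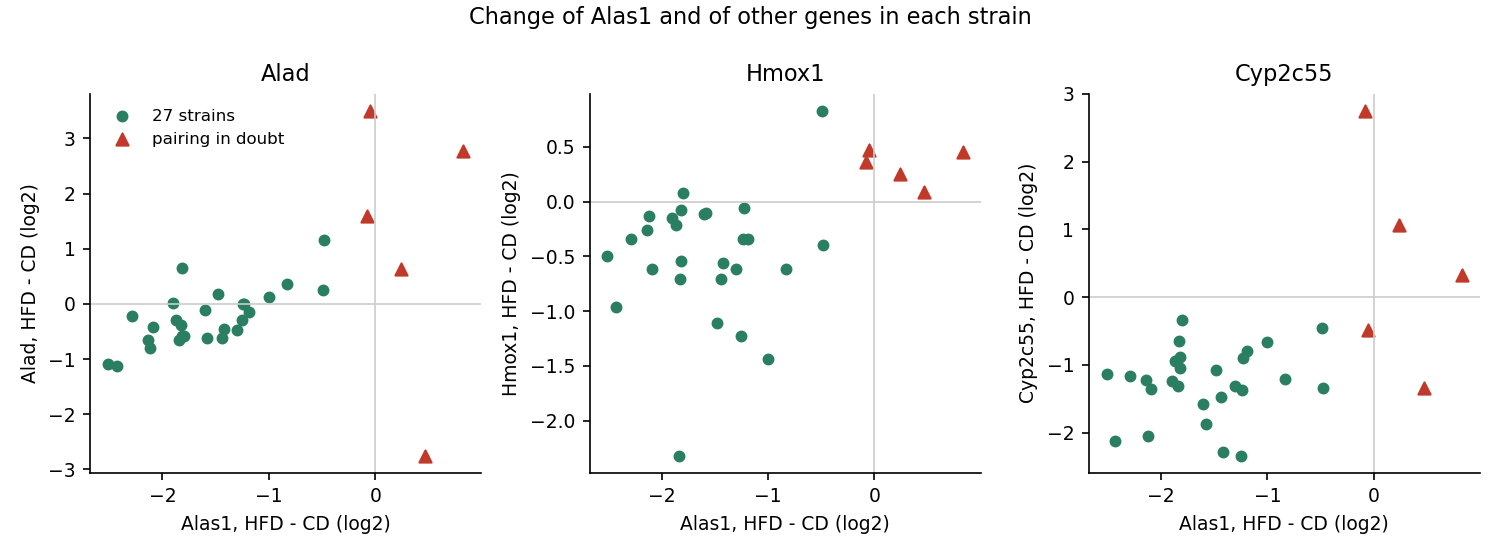
Change HFD minus CD (log2) of Alad, Hmox1 and Cyp2c55 (y axes) against that of Alas1 (x axes) in each of 32 strains, with the 5 of doubtful pairing as triangles. For Alad the 27 circles rise from lower left to upper right (r = 0.71), and for Hmox1 and Cyp2c55 they do not (r = 0.11 and 0.18).

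How far a strain's level carried over from one diet to the other was weak outside Alad. The r between the CD and HFD arrays over 32 strains was 0.22 for Alas1 (permutation p = 0.231, rho = 0.30, permutation p = 0.0943), 0.36 for Urod (permutation p = 0.0425) and 0.35 for Ppox (permutation p = 0.0497), and it was between -0.04 and 0.13 for Uros, Cpox, Fech and Hmox1. After adjustment over 9 values none passed. The median over all genes was 0.14, and 95% of genes were under 0.48. Within the low strains Alad had 0.47 (permutation p = 0.0756) and within the high ones 0.33 (permutation p = 0.263). Without the strains in doubt Alas1 had r = 0.52 (permutation p = 0.00514, adjusted p = 0.0463; rho = 0.50, permutation p = 0.0082, adjusted p = 0.0738). In those 27 strains, a strain with more Alas1 on CD, such as BXD64 (16.11 and 14.52), tended to have more on HFD, and one with less, such as BXD27 (14.37 and 12.23), less. Urod had 0.41 and Ppox 0.39 there (adjusted p = 0.135 for both), and Uros, Cpox, Fech and Hmox1 lay between -0.01 and 0.20.

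Within a diet, no gene of the set passed adjustment over 16 values with Alas1. Nearest to it, all at an adjusted p of 0.0791, were Alad among its high arrays on HFD, Urod on HFD and Hmox1 on CD. Among the 16 HFD arrays with high Alad, r was 0.59 (permutation p = 0.0148; rho = 0.60, permutation p = 0.0164), and it was 0.26 over the 12 left without the strains in doubt (permutation p = 0.427). Urod, the decarboxylase of the ring's side chains, ran against Alas1 on HFD (r = -0.49, permutation p = 0.0052; rho = -0.49, permutation p = 0.00476), and did so over 27 strains (r = -0.46, permutation p = 0.0171, adjusted p = 0.137). On CD the r of Urod was 0.23 (permutation p = 0.196). The difference between the diets was not tested. For Hmox1 on CD r was 0.48 (permutation p = 0.0105; rho = 0.36, permutation p = 0.042) and 0.39 over 27 strains (permutation p = 0.0491, adjusted p = 0.262). On HFD it went from 0.25 (permutation p = 0.176) to -0.06 (permutation p = 0.758). Fech had 0.31 on HFD (permutation p = 0.0809) and 0.08 on CD (permutation p = 0.66), and 0.35 and 0.25 over 27 strains.

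Over all 32 strains, the genes whose level followed Alas1 most closely within both diets were Spdef, a factor of goblet cell formation, and the epoxide hydrolase Ephx4. The mean of the r on CD and on HFD was 0.70 for each. They were followed by Zfand2a, a heat shock gene, and Snap23, a membrane fusion protein, with 0.65 each. Oma1, a mitochondrial protease, B4galt4 and Tmc5 had 0.64, Atp6v1d 0.63, and Btbd1 and Sptssb 0.62. At the other end stood Stag1 with -0.59 and Olfr910 and the phosphate carrier Slc34a2 with -0.50. Without the strains in doubt, the r of the first 10 ran from 0.39 to 0.75 on CD and from 0.32 to 0.59 on HFD, and the order among them changed. Atp6v1d then had 0.75 on CD and 0.44 on HFD, Ephx4 0.55 and 0.59, Btbd1 0.61 and 0.45, and Spdef 0.50 and 0.53. Of the 10, all but Btbd1 (adjusted p = 0.409) were called lower on HFD in the limma fit, by 0.95 for Zfand2a to 0.32 for Snap23. Over all genes 1.44% were called lower. The ranking included the strains in doubt, where an array held Alas1 near the level of the other diet, so it can favour genes that differ by diet. These calls are therefore no separate support. Hmox1 was the closest of the set, at 0.36 and rank 423 of all genes.

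Heme breakdown beyond Hmox1 did not pass. Blvra and Blvrb, which turn biliverdin into bilirubin, differed by 0.28 (adjusted p = 0.267) and -0.23 (adjusted p = 0.410), and Hmox2, the constant partner of Hmox1, by -0.14 (adjusted p = 0.515). None of the 4 genes of this list was called, with a median difference of -0.18 against 0.002 over all genes. In the fit with strain as a block, Blvra rose (adjusted p = 0.0462), with 1.39% of all genes called higher.

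Among 10 measured genes of heme and porphyrin transport, 1 was called, against 1.44% of all genes called lower and 0.743% higher. Abcb6, a carrier of porphyrins in the outer mitochondrial and other membranes, fell by 0.43 (SE 0.120, adjusted p = 0.0405 by limma), from 7.44 ± 0.55 to 7.02 ± 0.43, and was lower in 23 of 32 strains. Leaving out the strains in doubt, it fell by 0.56 (adjusted p = 0.00204). The lysosomal heme carrier Slc48a1 differed by -0.24 (adjusted p = 0.162), Slc25a39, which brings glutathione into mitochondria, by -0.22 (adjusted p = 0.266) and Flvcr2 by 0.20 (adjusted p = 0.350). The median of the list was 0.05. Of 7 genes that modify heme or hold it in mitochondria, none was called, with a median of 0.01. Cytochrome c (Cycs) differed by -0.13 (adjusted p = 0.331) and Cox15, which makes heme A, by -0.19 (adjusted p = 0.399).

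Of 17 measured iron genes, 1 fell and 1 rose, against 1.44% and 0.743% of all genes. Ftl1, the light chain of the iron store ferritin, fell by 0.47 (SE 0.110, adjusted p = 0.00743 by limma), from 16.35 ± 0.46 to 15.88 ± 0.43, and 28 of 32 strains had the lower value on HFD. Over the 27 strains it fell by 0.55 (adjusted p = 9.42e-05). Aco1, which doubles as an iron-sensing RNA-binding protein, rose by 0.24 (SE 0.069, adjusted p = 0.0457). Its adjusted p was 0.0145 over the 27 strains, 0.0677 with the block and 0.0814 without the Defa24-rich arrays. Slc40a1, the iron exporter ferroportin, differed by 0.80 (SE 0.272, adjusted p = 0.110) and was lower in 3 of 32 strains, with an adjusted p of 0.00228 with the block. Over the 27 strains it rose by 1.06 (adjusted p = 0.0118). Ncoa4, which hands ferritin to the lysosome, differed by -0.21 (adjusted p = 0.140), was lower in 25 of 32 strains and fell in the fit with the block (adjusted p = 0.0377). The transferrin receptor Tfrc differed by -0.04 (adjusted p = 0.957); Tfrc lies outside the rule for named genes. The median of the list was -0.07.

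A list of 19 genes held known regulators of Alas1, genes that remove its protein, and Pck1. Of the 19, Pck1 was the 1 called, against 1.44% of all genes called lower and 0.743% higher. No regulator or remover of Alas1 passed in this fit. Pck1, a gluconeogenic enzyme that, like Alas1, is driven by the coactivator Ppargc1a in fasting liver, fell by 0.94 (SE 0.124, adjusted p = 1.03e-06 by limma) in 28 of 32 strains, from 12.14 ± 0.50 to 11.20 ± 0.52. Nfe2l2, the antioxidant factor that also drives Hmox1, differed by -0.31 (adjusted p = 0.0955), Nr1d1, a clock repressor, by -0.51 (adjusted p = 0.184), and Clpp, part of the protease that degrades the Alas1 protein, by -0.23 (adjusted p = 0.193). In the 27 strains, Pck1, Nfe2l2 and Clpp fell (adjusted p = 5.37e-12, 0.00615 and 0.0380 by limma), with 2.70% of all genes called lower. The median of the list was -0.09. Outside the rule for named genes, Ppargc1a itself differed by 0.12 (adjusted p = 0.736) and Nrf1 by -0.15 (adjusted p = 0.434). Across strains, the changes of Alas1 and Pck1 had r = 0.58 over 32 strains and 0.02 over 27, given as a description.

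**Figure D5:**
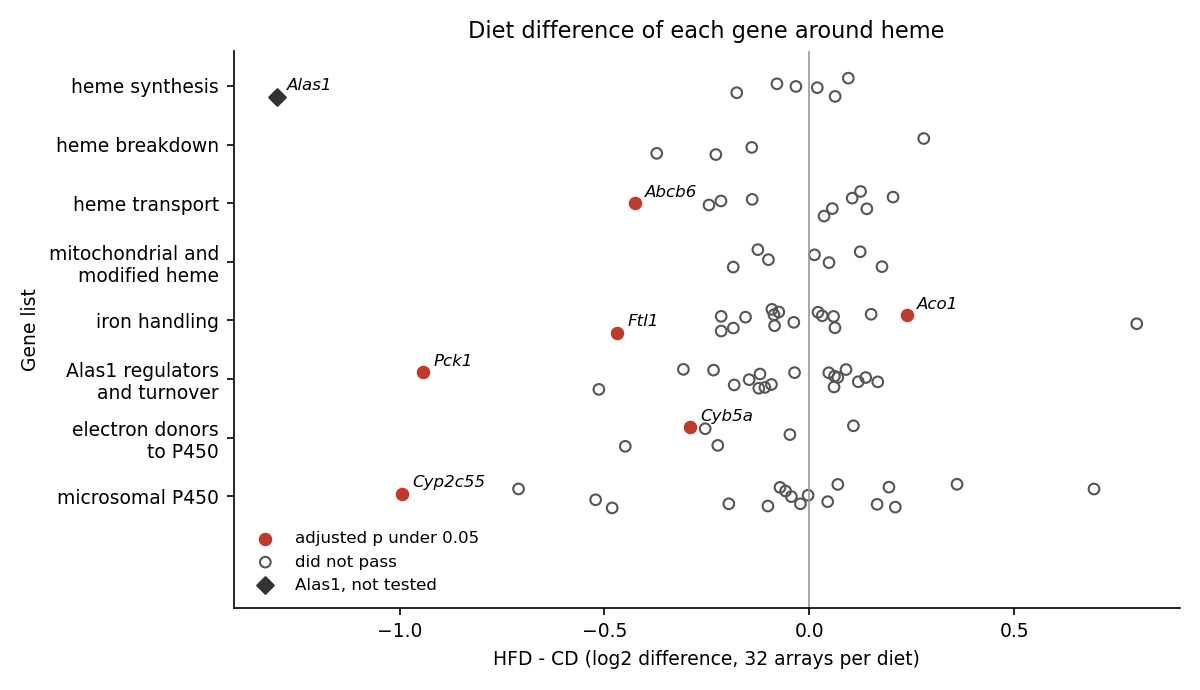
Difference HFD minus CD (log2, x axis) of each measured gene in 8 lists around heme (y axis, spread within a list at random), over 32 arrays per diet. Filled circles passed an adjusted p of 0.05 over all genes (Abcb6, Ftl1, Aco1, Pck1, Cyb5a, Cyp2c55), open ones did not, and the diamond is Alas1, which was not tested.

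Of 6 measured genes that carry electrons to P450 or assist it, 1 was called, against 1.44% of all genes called lower and 0.743% higher. Cytochrome b5 (Cyb5a) fell by 0.29 (SE 0.085, adjusted p = 0.0476 by limma), with less on HFD in 26 of 32 strains. Its adjusted p was 0.0808 without the Defa24-rich arrays. Its mitochondrial form Cyb5b differed by -0.22 (adjusted p = 0.135), the heme-binding membrane protein Pgrmc1 by -0.25 (adjusted p = 0.237) and the reductase Cyb5r3 by -0.45 (adjusted p = 0.247). Over the 27 strains, Cyb5a, Cyb5b and Pgrmc1 fell (adjusted p = 0.0176, 0.0347 and 0.0329), and with strain as a block Cyb5a and Pgrmc1 did (adjusted p = 0.0155 and 0.0463). The share of all genes called lower was 2.70% in the fit over 27 strains and 2.13% with the block. The median of the list was -0.24, against 0.002 over all genes.

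Of 18 microsomal P450 genes, 1 was called, Cyp2c55, whose fall was known when the list was made. The shares over all genes were 1.44% lower and 0.743% higher. Cyp2c55 fell by 1.00 (SE 0.168, adjusted p = 0.000193 by limma) in 29 of 32 strains, from 18.81 ± 0.77 to 17.81 ± 0.62, with a difference of -1.26 over the 27 strains (adjusted p = 2.35e-12). Cyp4f16 differed by 0.36 (adjusted p = 0.0656), Cyp2d26 by 0.69 (adjusted p = 0.0923) and Cyp4b1 by -0.71 (adjusted p = 0.181). Over 27 strains Cyp4f16 and Cyp2d26 rose (adjusted p = 0.000645 and 0.0129) and Cyp4b1 fell (adjusted p = 0.0415), with 1.69% of all genes called higher and 2.70% lower. In the blocked fit 4 of the 18 were called, Cyp2c55 (adjusted p = 0.000165), Cyp4b1 (adjusted p = 0.0256) and Cyp3a13 (adjusted p = 0.00695) lower and Cyp2d26 (adjusted p = 0.0287) higher. That fit called 2.13% of all genes lower and 1.39% higher. Cyp3a13, which lies outside the rule for named genes, differed by -0.52 and was lower in 25 of 32 strains. The median of the list was -0.03, with values on both sides of 0.

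Markers of the cells in the tissue were read beside these values, with the shares of all genes called in each fit as given above. In the fit without the Defa24-rich arrays, 157 genes rose and 249 fell of 19503. Of 9 colonocyte markers none was called, with list means of 14.80 to 15.78 on CD and 14.84 to 15.70 on HFD. Once the strains in doubt were left out, Car4 fell (adjusted p = 0.0158, and 0.0207 over all strains with the block) and Slc51a rose (adjusted p = 0.0193). Of 8 goblet cell markers Spdef fell, by 0.91 (adjusted p = 0.00128), and by 1.18 over the 27 strains (adjusted p = 2.22e-06). The other 7 did not pass, with means of the list of 17.19 to 18.16 on CD and 17.08 to 18.12 on HFD. Of 10 small intestinal markers none was called, with list means of 8.71 to 12.54 and 8.74 to 14.58. With strain as a block Enpep, a brush border peptidase, rose (difference 0.93, adjusted p = 0.0217, higher in 27 of 32 strains), and so did Alpi, the intestinal alkaline phosphatase (0.46, adjusted p = 0.0376, higher in 25). Enpep also rose without the strains in doubt (adjusted p = 0.0356) and without the Defa24-rich arrays (adjusted p = 0.0196), where Alpi did not pass (adjusted p = 0.168 and 0.269). Of 9 macrophage markers, cells that hold much Hmox1 as they clear red blood cells, none was called (7.65 to 8.95 and 7.64 to 9.10). Of 8 smooth muscle markers none was called (13.79 to 15.21 and 13.61 to 15.17), and Myh11 rose without the strains in doubt (adjusted p = 0.0176). Of 4 measured erythroid markers none was called (5.48 to 6.15 and 5.39 to 6.28), with Alas2, the red cell form of the first enzyme, at 5.01 ± 0.34 and 5.03 ± 0.49. The part of these cells in the values of Alas1 and Hmox1 was not tested. The difference of Alas1 lay between -1.59 and -1.27 over the main fit and all 10 alternatives, those without the Defa24-rich arrays and without the arrays that stand apart included.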

How the data were processed

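Colon RNA of 32 mouse strains on CD and HFD was measured on 64 Clariom S arrays. The table was used as deposited, in log2 units, after the authors' normalisation with Affymetrix Power Tools. The methods say that probes in polymorphic regions were ignored; whether the table reflects this is not given in the sources used here. Of 22199 probesets, 19570 have 1 gene symbol and 2629 are unnamed here and were left out; the median over probesets was taken for 55 genes, leaving 19503. The diets were compared as HFD minus CD by limma 3.58.1 in R 4.3.3 (lmFit, eBayes), threshold 0.05, with strain as a replicate block as an alternative. Arrays labelled with 1 inbred strain were taken as a pair: their deviations from the diet mean correlated by over 0.1 in 22 of 32 pairs (median 0.21, against -0.01 between strains), and 5 pairs are in doubt.

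Correlations used 100000 two-sided permutations in Python 3.11.15 (numpy 2.4.6, pandas 2.3.3). With Por not analysed and Alad split into its low and high level, families held 9, 16 and 10 values, and Alad's changes were read over strains that kept their level. The 9 genes with 2 levels had their largest gap, of at least 1, with 8 or more arrays on both sides in each diet. This rule was added after values were seen. Alad was split at its largest gap with 8 or more arrays on both sides, 0.60 on CD and 1.03 on HFD, so on CD it did not meet the rule. Promoters are RefSeq windows of GRCm38.p6. The genes, lists and alternatives were chosen with earlier results of these data known. Named were the set, up to 4 genes with the smallest p in each list, the 10 genes most like Alas1 and the 3 least like it, Cyp2c55, Ces2a and Nqo1; further genes are marked where named. The tests were checked on simulated data. Alternatives were the block, the upper 60% of genes, a variance trend, median centring, quantile normalisation, the mean over probesets, Spearman correlation, the 30 BXD strains, and leaving out the strains in doubt, the Defa24-rich arrays or those that stand apart. The number of arrays limits the precision.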

Additional observations from a re-analysis of the deposited data

How the results depend on the processing

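Without the strains of doubtful pairing, 330 genes rose and 527 fell, against 145 and 281 over all strains, and with strain as a replicate block 271 rose and 416 fell. The count of genes other than Alas1 called was 0 over all strains and 1, Hmox1 each time, with the replicate block, in the upper 60% of genes, in the 30 BXD strains, without the strains of doubtful pairing and without the Defa24-rich arrays. The adjusted p of Hmox1 by limma was 0.0349 with the replicate block, 0.0312 in the 30 BXD strains and 0.0455 without the Defa24-rich arrays. In the upper 60% of genes, 200 rose and 360 fell of 11702 tested. Of 19503 genes, 200 rose and 342 fell in the 30 BXD strains, and 157 rose and 249 fell without the Defa24-rich arrays. Alad and Ppox turned direction in the 30 BXD strains, at 0.00 (adjusted p = 0.998) and -0.01 (adjusted p = 0.974). Values that carried over between diets went from 0 called to 1, Alas1, without the strains of doubtful pairing. Values with Alas1 within a diet went from 0 to 1, Urod on HFD, after quantile normalisation. Of the 10 correlations of changes, 5 were called over all strains (28 for Alad), 1 without the strains of doubtful pairing and 3 by Spearman correlation. The r of Urod turned to 0.07 without the strains of doubtful pairing. The r of Alad lay between 0.64 and 0.75 over all settings, in each of them over strains that kept their level of Alad. The cause was not tested for any of these moves. The mean level of Uros ranked above 11.6% of genes, and no background level is part of the table, so what can be seen of changes in it is limited.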
